A study of Bos taurus with 15 samples.

Results

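Bovine embryos of the 2-, 4- and 8-cell stages were treated as 1 early cleavage group and compared with oocytes. The group held the 3 arrays that the labels title as the 2-cell, the 4-cell and the 8-cell stage, 3 of 15 arrays in the series, and it was set against the 3 oocyte arrays. Each cleavage stage had a single array, so the 3 arrays are different stages and not replicates of 1 stage, and the differences among them count as spread within the group. The remaining 9 arrays were 2 of 1-cell embryos, 1 of 16-cell embryos, 3 of morulae and 3 of blastocysts. The labels describe embryos made in vitro. Oocytes aspirated from ovarian follicles were matured in medium with gonadotrophins and fetal calf serum, fertilized with separated sperm, freed of cumulus cells by vortexing after fertilization and cultured in synthetic oviduct fluid medium. No treatment beyond this culture was given, and the labels name no breed, genotype or number of embryos per array. They give the same growth text for every array, so how far the oocytes of the 3 oocyte arrays had matured, and how their cumulus cells were removed, is not given in the sources used here.

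After fertilization a mammalian embryo divides without growing, and its early divisions run on RNA and protein that the oocyte stored. Much of this maternal RNA is held with a short poly(A) tail, is lengthened and translated when needed, and is then shortened and destroyed. The embryo's own genome starts with a few genes and is switched on broadly several divisions later, in cattle around the 8- to 16-cell stage. The arrays were hybridized with RNA amplified in 3 rounds, a method that primes on the poly(A) tail, so a change in the amount of a transcript and a change in its tail cannot be told apart here. Nor can the amount per embryo be read, since a signal shows how much of the amplified RNA a transcript made up.

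The deposited values were probe set signals on a linear scale, and the array means lay between 553 and 595 for the cleavage arrays and between 558 and 584 for the oocytes. The arrays of each group differed widely among themselves. Of 24016 probe sets, 2356 differed at least 4-fold between the 2- and the 4-cell array, 2891 between the 4- and the 8-cell array and 3320 between the 2- and the 8-cell array. Between a cleavage array and an oocyte array the number was 2903 to 3894. Oocyte arrays 1 and 2 differed 4-fold at 320 probe sets, whereas oocyte array 3 differed from them at 3065 and 2772. The oocyte arrays also differed in the control RNAs added at labelling: the lys control read 11420, 11440 and 14810 on the 2-, 4- and 8-cell arrays, against 16.3, 2815 and 13080 on oocyte arrays 1, 2 and 3. The thr control read 272.6, 135.8 and 137.8 on the cleavage arrays, against 48.4, 2632 and 124.5 on oocyte arrays 1, 2 and 3. The array's control for cyclophilin, which compares the middle of the transcript with its 3′ end, gave ratios of 0.562, 0.0229 and 0.0115 on the 2-, 4- and 8-cell arrays, against 0.0607, 0.102 and 0.0141 on the oocyte arrays. The same ratio for actin was lowest on the 2-cell array: 0.00588, 0.0299 and 0.0475 on the cleavage arrays, against 0.0275, 0.0367 and 0.044 on the oocyte arrays. For eIF-4E it was 0.157, 0.272 and 0.233, against 0.0388, 0.0964 and 0.235. For GAPDH it was 0.237, 0.0935 and 0.0571, against 0.0977, 0.237 and 0.0374. These controls did not order the arrays alike. The part of these differences in the results was not tested beyond the values without each array and with the added controls as a block. The block put oocyte array 2 in 1 class with the cleavage arrays, so it did not cover the difference of that array in these controls.

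**Figure D1:**
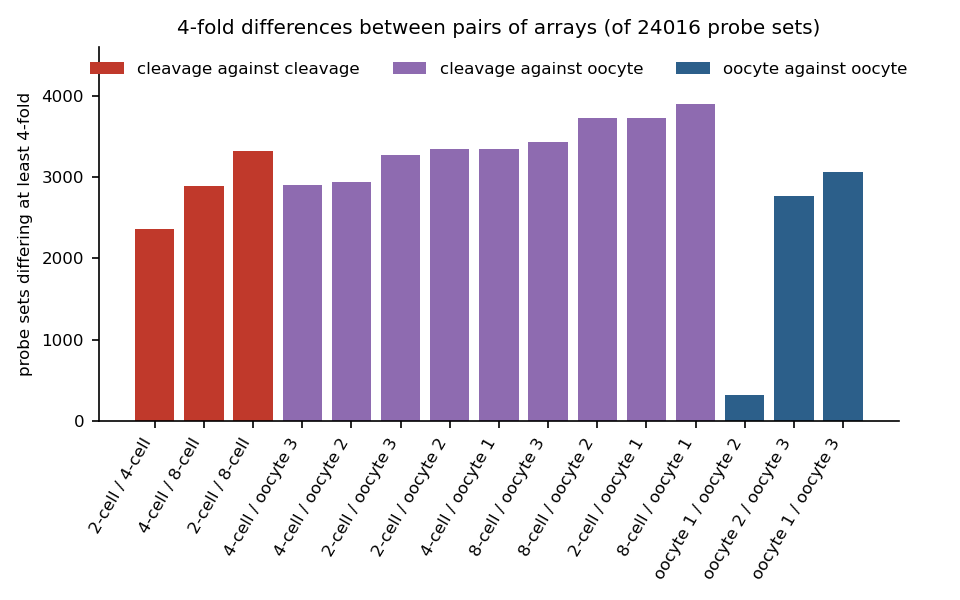
Number of probe sets, of 24016, whose log2(signal + 16) differed at least 4-fold between 2 arrays, for pairs of cleavage arrays, pairs of a cleavage and an oocyte array, and pairs of oocyte arrays. Pairs of cleavage arrays reached 2356 to 3320 differences, a cleavage and an oocyte array 2903 to 3894, and oocyte arrays 1 and 2 only 320.

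The question was which transcripts the early cleavage embryos held at another relative level than the oocyte did. With limma on log2(signal + 16), fitted to all 15 arrays with a mean per group, 655 of 24016 probe sets (2.73%) passed an adjusted p of 0.05, where 382 (1.59%) were higher and 273 (1.14%) were lower in early cleavage. Counted by gene, with the probe set of highest mean signal for each, 207 of 9155 genes (2.26%) rose and 124 (1.35%) fell. The median change was 2.86 on the log2 scale among the genes that rose and -3.11 among those that fell, while over all probe sets it was 0.02. In 895 genes (9.78%) the 3 cleavage arrays lay above every oocyte array and in 797 (8.71%) below every one, a criterion with no test behind it.

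The calls depend on the arrays of the other stages, which add to the estimate of the spread. When only the 6 arrays compared entered the fit, limma called 0 probe sets, 2690 passed an unadjusted p of 0.05, and NHLRC2 reached an adjusted p of 0.0574. Every call named in the following was lost in that fit, and ranges of adjusted p over the alternatives leave it out. Brackets after a gene's signals hold its log2 change, early cleavage minus oocytes, ± SE, with limma's adjusted p. An exact permutation test of 3 against 3 arrays cannot give a two-sided p under 0.1. Leaving out oocyte array 1, the only one of the 6 classed as low in the added controls, left 307 calls. Leaving out oocyte array 2, whose added controls also differed from those of the cleavage arrays, left 342, and leaving out oocyte array 3 gave 1167. Other probe sets of the same genes seldom passed: 108 of the 331 genes called had another probe set, and in 8 of them another one passed in the same direction and in 0 in the opposite one. The median change of these 156 other probe sets, counted in the direction of the gene's call, was 0.31 on the log2 scale. In the following they are given for some of the genes only.

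**Figure D2:**
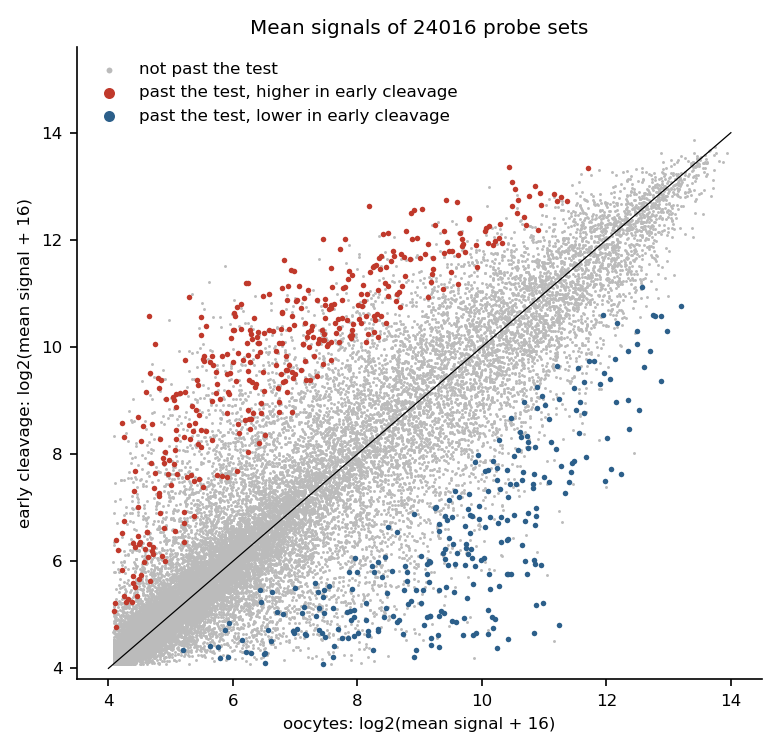
Mean signal of each of 24016 probe sets in early cleavage embryos (y axis) and in oocytes (x axis), both as log2(mean signal + 16), with n = 3 arrays a group; the line marks equal signal. The 382 probe sets above the line and 273 below it that passed limma's test are coloured, and most of the scatter around the line did not pass.

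Most of the transcripts that define an oocyte had a strong signal: of the 10 measured genes of the oocyte and maternal-effect list, 9 read above 500 on the 8-cell array and on oocyte array 1, and 10 did on the other 4 arrays. ZP2, which encodes a protein of the zona pellucida, read 10801, 10794 and 9661 on the 2-, 4- and 8-cell arrays, against 11174, 12718 and 11905 on the 3 oocyte arrays. ZP4 of the same coat gave 8448, 8276 and 7709 in early cleavage embryos and 6197, 8069.6 and 8210.3 in oocytes, and the 2 groups overlapped. MOS, the kinase that holds the egg in metaphase of meiosis II, gave 6489, 6811 and 5179 in early cleavage embryos and 2825, 7851 and 7426 in oocytes. The nuclear import receptor KPNA7 gave 7766, 6393 and 9519 in early cleavage embryos and 6329, 14177 and 7143 in oocytes. None of the 10 genes passed the test, where 2.26% of all genes rose and 1.35% fell. Their median log2 change was 0.14, against 0.02 over all genes.

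Some maternal transcripts were uneven within a group. The oocyte growth factor GDF9 read 2089.5, 1863 and 1122 in early cleavage embryos, against 928, 1331 and 885 in oocytes. Its relative BMP15 read 3681, 5838 and 5556 in early cleavage embryos, against 423, 708 and 4779 in oocytes, so oocyte array 3 lay among the cleavage arrays and the other oocyte arrays far below them. NLRP5, part of the subcortical maternal complex, had the same arrangement, with 8281, 8012 and 5356 in early cleavage embryos and 1549, 1166 and 6445 in oocytes. ZP3 of the zona pellucida read 1584, 3255 and 2042 in early cleavage embryos and 587, 1713 and 6332 in oocytes, lowest and highest on oocyte arrays 1 and 3. OOEP, another maternal complex gene, gave 4229, 4754 and 3431 in early cleavage embryos and 2857, 5673 and 6896 in oocytes. UCHL1, a deubiquitinase abundant in oocytes, stood at 7407, 6831 and 61.3 in early cleavage embryos, against 8082, 8620.0 and 8678 in oocytes, low on the 8-cell array only. The log2 changes were 2.10 ± 0.70 for BMP15 (adjusted p = 0.159), 1.63 ± 0.54 for NLRP5 (adjusted p = 0.155) and 0.66 ± 0.46 for GDF9 (adjusted p = 0.561). BMP15 and NLRP5 passed as higher in early cleavage without oocyte array 3 and without the arrays numbered 3, with adjusted p as low as 0.00271 for BMP15 and 0.00507 for NLRP5.

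The largest rise was that of NHLRC2, which encodes a protein with NHL repeats and a thioredoxin-like domain. It read 1233, 1291 and 3305 on the 2-, 4- and 8-cell arrays, against 22.3, 25.9 and 21.3 on the oocyte arrays, a log2 change of 5.49 ± 0.74 (SE; adjusted p = 0.00253). All 3 cleavage arrays stood far above all oocyte arrays, although the gene's other probe sets had log2 changes of -0.04 and 2.55 and did not pass. GLRX3, a glutaredoxin that handles iron-sulfur clusters, read 896, 1365 and 1274 in early cleavage embryos, against 18.5, 40.9 and 27.9 in oocytes (log2 change 4.73 ± 0.53, adjusted p = 0.00105); its other probe set had a log2 change of -0.11. BRD8, the bromodomain subunit of the NuA4 histone acetyltransferase complex, read 4472, 7653 and 6977 in early cleavage embryos, against 454, 254 and 120.4 in oocytes (4.59 ± 0.41, adjusted p = 2.96e-04). Its lowest embryo array lay more than 4-fold above its highest oocyte array, and another probe set had a log2 change of 0.46.

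THOC5, FXR1, MTF1 and PHLDA2 were also among the 15 largest rises. THOC5, of the THO complex that couples transcription to mRNA export, read 1229.8, 2641 and 2158 in early cleavage embryos, against 33.1, 50.4 and 157 in oocytes (4.55 ± 0.54, adjusted p = 0.00133). The RNA-binding protein gene FXR1 read 894, 1765 and 5580.2 in early cleavage embryos, against 163, 139.9 and 15.2 in oocytes (4.45 ± 0.73, adjusted p = 0.00847), highest on the 8-cell array. MTF1, the transcription factor that responds to zinc and other metals, read 3829.7, 3790.3 and 4684 in early cleavage embryos, against 197, 220.4 and 58.96 in oocytes (4.72 ± 1.10, adjusted p = 0.0428). PHLDA2, an imprinted gene that restrains placental growth in mice, read 2276, 2574 and 1821 in early cleavage embryos, against 76.5, 193 and 39.1 in oocytes (4.44 ± 0.50, adjusted p = 0.00105). The cleavage and the oocyte arrays did not overlap in any of these genes.

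ALDH2, TIMM9 and IFT122 belonged to the same 15 genes. ALDH2, the mitochondrial aldehyde dehydrogenase, read 5811, 4151 and 8382 in early cleavage embryos, against 986, 535 and 7.32 in oocytes (4.65 ± 1.02, adjusted p = 0.0317), where oocyte array 3 was nearly without signal. TIMM9, a chaperone of mitochondrial protein import, read 1245, 1988 and 541 in early cleavage embryos, against 106, 28.9 and 9.23 in oocytes (4.44 ± 0.64, adjusted p = 0.00391). IFT122, of the transport complex inside cilia, read 412, 3075 and 3527 in early cleavage embryos, against 104, 65.1 and 3.96 in oocytes (4.85 ± 0.86, adjusted p = 0.0121). The last 5 of the 15 were CCDC92, the aminotransferase gene AADAT, the endosomal protein gene WDFY1, the proton pump subunit gene ATP6V1E1 and ARMC7. Their log2 changes were 4.41 ± 0.43, 4.40 ± 0.66, 4.29 ± 0.61, 4.26 ± 0.49 and 4.11 ± 0.47, with limma's adjusted p of 4.59e-04, 0.00460, 0.00363, 0.00107 and 0.00107. Of the 15 rises, MTF1 lost its call without any 1 of the 6 arrays and after quantile normalization (adjusted p 0.0554 to 0.108). ALDH2 lost its call without any 1 of the cleavage arrays and with a pseudocount of 1 (adjusted p 0.0539 to 0.0739).

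**Figure D3:**
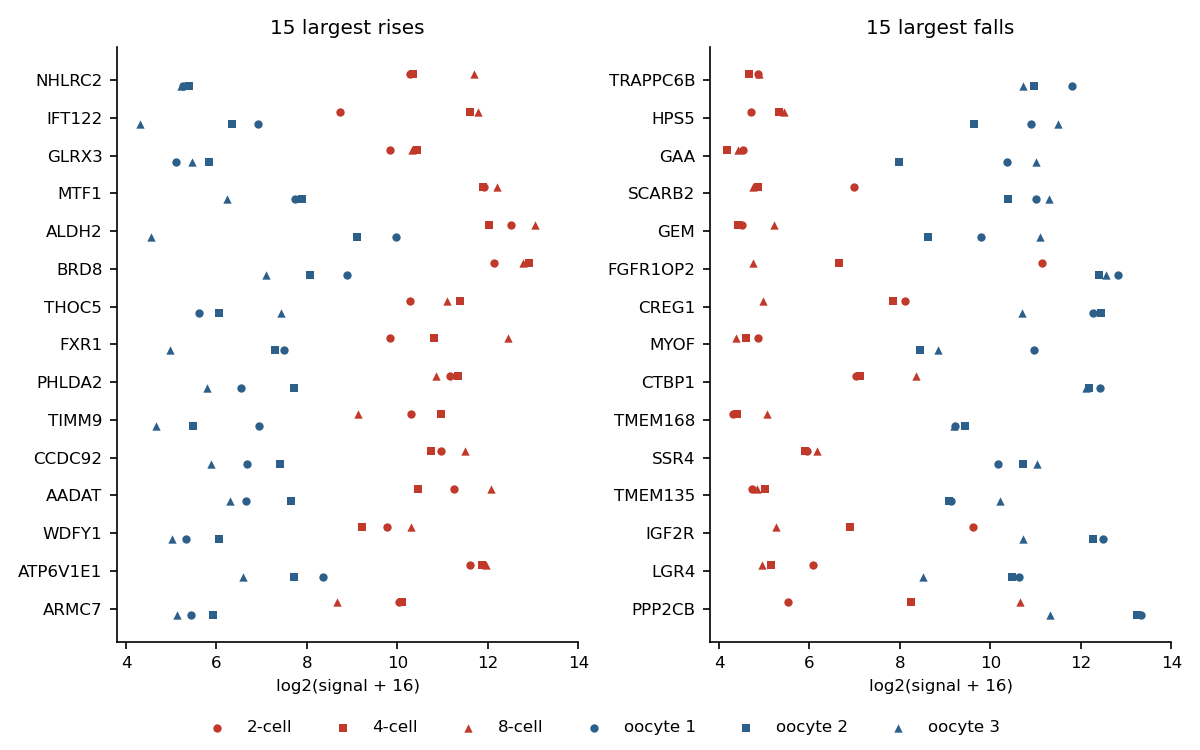
Signals, as log2(signal + 16), of the 15 genes with the largest rise and the 15 with the largest fall in early cleavage, on the 2-, 4- and 8-cell arrays (red) and on the 3 oocyte arrays (blue); each symbol is 1 array. The red and blue symbols do not overlap in any of the 30 genes, which was part of the rule that chose them, while within a gene the cleavage arrays can lie far apart, as in FGFR1OP2 and PPP2CB.

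The largest fall was in TRAPPC6B, a subunit of the TRAPP complexes that tether vesicles. It read 13.2, 9.27 and 13.6 on the 2-, 4- and 8-cell arrays, against 3553, 1982 and 1671 on the oocyte arrays, a log2 change of -6.36 ± 0.90 (adjusted p = 0.00363); another probe set had a log2 change of -0.69. SSR4, of the translocon-associated complex of the endoplasmic reticulum, had the lowest adjusted p of the 30 genes. It read 46.1, 43.7 and 55.5 in early cleavage embryos, against 1137, 1679 and 2087 in oocytes (-4.64 ± 0.33, adjusted p = 6.85e-05), and the arrays within each group lay close together. CTBP1, a transcriptional corepressor, read 116, 123 and 309.9 in early cleavage embryos, against 5466, 4600.5 and 4395 in oocytes (-4.73 ± 0.51, adjusted p = 8.91e-04); its other probe set had a log2 change of 1.72 without passing. GEM, a small GTPase of the RGK family, read 6.79, 5.39 and 21.2 in early cleavage embryos, against 868, 379 and 2175 in oocytes (-5.12 ± 0.50, adjusted p = 4.96e-04).

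The next 5 falls described were GAA, SCARB2, IGF2R, CREG1 and HPS5. GAA, the lysosomal enzyme that breaks down glycogen, read 7.16, 2.11 and 5.47 in early cleavage embryos, against 1303, 235 and 2048 in oocytes (-5.40 ± 1.20, adjusted p = 0.0337). SCARB2, a lysosomal membrane protein, read 111, 13.1 and 10.8 in early cleavage embryos, against 2059.8, 1329.7 and 2514 in oocytes (-5.38 ± 1.19, adjusted p = 0.0338), and its 2-cell array kept more signal than the others. IGF2R, which carries mannose 6-phosphate enzymes to lysosomes and binds insulin-like growth factor II, read 770.1, 103 and 22.6 in early cleavage embryos, against 5763, 4951 and 1667 in oocytes (-4.57 ± 0.94, adjusted p = 0.0239). CREG1, a lysosomal glycoprotein, read 262, 215 and 15.5 in early cleavage embryos, against 4889, 5557 and 1642 in oocytes (-4.82 ± 1.07, adjusted p = 0.0337), lowest on the 8-cell array. HPS5, needed to form lysosome-related organelles, read 10.2, 24.02 and 27.2 in early cleavage embryos, against 1882, 785 and 2889 in oocytes (-5.52 ± 1.16, adjusted p = 0.0263). The highest adjusted p of limma over the alternatives was 0.123 (GAA), 0.112 (SCARB2), 0.101 (IGF2R), 0.123 (CREG1) and 0.0951 (HPS5). All 5 lost their call without oocyte array 1, and also without other single arrays. These were any 1 cleavage array or oocyte 3 for GAA, and the 4-cell, 8-cell, oocyte 2 or oocyte 3 array for SCARB2. For HPS5 they were the 2-cell, 4-cell, oocyte 2 or oocyte 3 array, for IGF2R the 4-cell or oocyte 2 array, and for CREG1 the 8-cell or oocyte 2 array. GAA also lost its call with a pseudocount of 64 and with the added controls as a block.

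In 2 of the 15 falls the cleavage arrays differed strongly from each other. FGFR1OP2 read 2231, 85.2 and 10.98 on the 2-, 4- and 8-cell arrays, against 7268, 5408 and 6037 in oocytes (-5.08 ± 1.18, adjusted p = 0.0408). PPP2CB, a catalytic subunit of protein phosphatase 2A, ran the other way along the stages, with 30.4, 288 and 1604 on the 2-, 4- and 8-cell arrays, against 10358, 9634 and 2542 in oocytes (-4.48 ± 1.04, adjusted p = 0.0419). The remaining falls were MYOF, TMEM168, TMEM135 and LGR4, the last a receptor for R-spondins, with log2 changes of -4.81 ± 0.96, -4.69 ± 0.62, -4.62 ± 0.52 and -4.48 ± 0.63. Another probe set of LGR4 had a log2 change of 2.26 and those of FGFR1OP2 had changes of -0.60 and 0.49, without passing. FGFR1OP2, PPP2CB and MYOF lost their calls without oocyte array 1 (highest adjusted p over the alternatives 0.134, 0.156 and 0.0916). The first 2 also lost them without oocyte array 2, without the 4-cell array and with the added controls as a block.

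Across the lists of genes by function, few members passed in any list, as over all genes. Of 72 measured genes of the nucleolus and of ribosome biogenesis 8 rose, 11.1% against 2.26% of all genes, the largest number of rises in any of the 21 lists. No member fell, and the list's median log2 change was 0.65. RRP12, which helps pre-ribosomes leave the nucleus, read 1342, 3179 and 2201 in early cleavage embryos, against 125, 151 and 77.96 in oocytes (4.03 ± 0.47, adjusted p = 0.00128). RRP1, for the maturation of the large subunit, read 1818, 3180.3 and 559 in early cleavage embryos, against 97.00, 149 and 56.4 in oocytes (3.76 ± 0.65, adjusted p = 0.0110). POLR1E, a subunit of RNA polymerase I, read 1337, 1178 and 660.4 in early cleavage embryos, against 16.2, 56.5 and 210.3 in oocytes (3.67 ± 0.64, adjusted p = 0.0110). GNL3, the nucleolar GTPase nucleostemin, read 862, 1965 and 2453 in early cleavage embryos, against 236, 111 and 195 in oocytes (3.10 ± 0.50, adjusted p = 0.00726). The groups of arrays did not overlap in any of these 4 genes.

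The other members past the test, named after their values were seen, were WDR43 (log2 change 3.00), IMP4 (2.32), SURF6 (2.05) and DKC1 (1.58). In 15 of the 72 genes all cleavage arrays lay above all oocyte arrays and in 3 below, next to 9.78% and 8.71% of all genes. DKC1 lost its call without any 1 of the 2-cell, 4-cell, oocyte 1 and oocyte 2 arrays and with the added controls as a block (adjusted p 0.0578 to 0.139). WDR43 lost its call in 9 alternatives, among them without any 1 of the cleavage arrays and without oocyte array 2 (adjusted p 0.0511 to 0.113).

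The proteins of the finished ribosome were counted apart. Of 63 cytoplasmic ribosomal protein genes, 4 fell and 1 rose, which is 6.35% against 1.35% of all genes for the falls and 1.59% against 2.26% for the rises. The list's median log2 change was -0.38. RPL22 read 21.9, 99.7 and 82.04 in early cleavage embryos, against 2414, 625 and 995 in oocytes (-3.95 ± 0.54, adjusted p = 0.00274). RPS26 read 28.9, 336 and 412 in early cleavage embryos, against 3243, 1883 and 1873 in oocytes (-3.59 ± 0.69, adjusted p = 0.0175), with the 2-cell array lowest. RPL18 read 366, 195 and 224 in early cleavage embryos, against 769, 1288 and 3041 in oocytes (-2.45 ± 0.46, adjusted p = 0.0152), and RPLP0, named after its value was seen, changed by -1.43 (adjusted p = 0.0142). RPS6, the ribosomal protein phosphorylated by S6 kinases, was the member that rose, with 8195, 4159 and 4930.0 in early cleavage embryos, against 1604, 1079 and 1808 in oocytes (1.90 ± 0.31, adjusted p = 0.00784). RPS26 lost its call without oocyte array 1 or 2 (adjusted p 0.0522 to 0.0773), and RPLP0 without oocyte array 2 (0.0597). Probe sets of ribosomal protein genes can also match processed pseudogenes, which these values cannot separate. Among 46 translation factor genes 1 rose (2.17%, against 2.26% of all genes) and 0 fell (against 1.35%). The rise was EIF3M, of initiation factor 3, at 2502, 3922 and 2215 in early cleavage embryos, against 1162, 912 and 790.0 in oocytes (1.55 ± 0.31, adjusted p = 0.0229). Its call was lost without the 4-cell array or oocyte array 2 (adjusted p 0.0677 to 0.0746). EIF1AX, often used as a mark of genome activation in cattle, read 1232, 2442 and 2189.6 in early cleavage embryos, against 2778, 1802 and 4577 in oocytes, and did not pass (adjusted p = 0.510).

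Turnover of maternal mRNA relies on deadenylases and the exosome. Their genes were counted within a wider list. It also holds genes that cut pre-mRNA, that lengthen the tail, or whose proteins bind mRNA. Of its 68 measured genes, 3 rose (4.41%, against 2.26% of all genes) and 0 fell (against 1.35%), with a median log2 change of 0.17. CNOT1, the scaffold of the CCR4-NOT deadenylase, varied little within each group, with 3888, 3716 and 3731 in early cleavage embryos, against 869.6, 694 and 857 in oocytes (2.21 ± 0.27, adjusted p = 0.00157). CNOT7, one of the catalytic subunits of that complex, overlapped between the groups, with 3878, 4364 and 7169 in early cleavage embryos and 6723, 7199.7 and 4626 in oocytes (adjusted p = 0.814). CPSF3, the nuclease that cuts pre-mRNA before the tail is added, read 1444, 2639.8 and 1958 in early cleavage embryos, against 209, 215 and 717 in oocytes (2.55 ± 0.48, adjusted p = 0.0156). EXOSC1, a subunit of the exosome, read 248, 150.1 and 47.2 in early cleavage embryos, against 13.2, 17.7 and 1.00 in oocytes (2.46 ± 0.58, adjusted p = 0.0442). CPSF3 lost its call without oocyte array 1 or 2 (adjusted p 0.0678 to 0.0688). EXOSC1 lost it in 8 alternatives, among them without any 1 of the 3 oocyte arrays (adjusted p 0.0729 to 0.130).

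**Figure D4:**
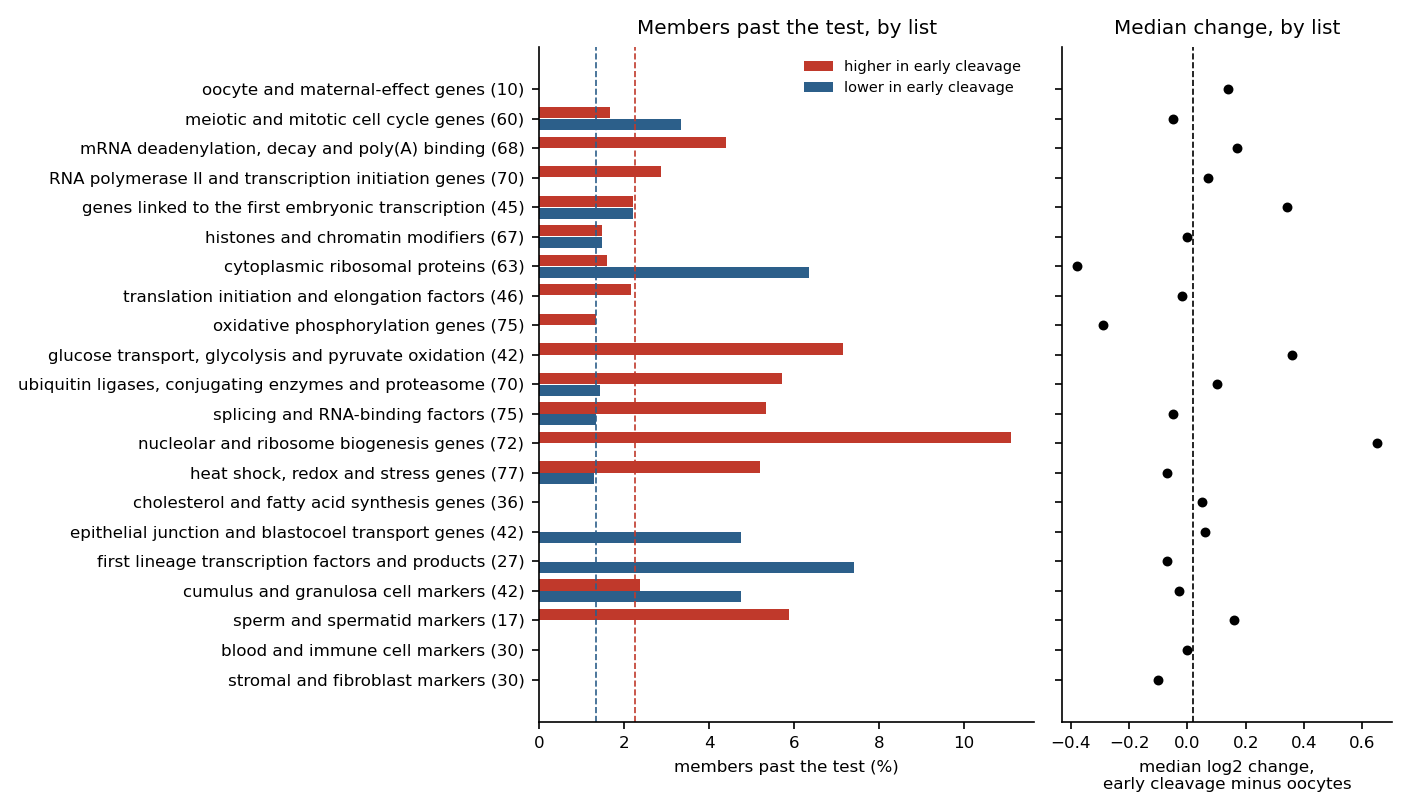
Share of the measured members of each list that passed limma's test as higher (red) or lower (blue) in early cleavage, with the number measured in brackets, and the median log2 change of each list on the right; dashed lines mark 2.26% and 1.35% of all 9155 genes and their median of 0.02. Nucleolar genes reached 11.1% higher, and ribosomal protein genes had the lowest median, at -0.38.

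Genes of the transcription machinery and of genome activation passed about as often as all genes. Of 70 genes for RNA polymerase II and initiation, 2 rose (2.86%, against 2.26% of all genes) and 0 fell (against 1.35%), and the median log2 change was 0.07. MED22, of the Mediator complex, read 252, 851 and 562 in early cleavage embryos, against 10.4, 10.4 and 43.97 in oocytes (3.88 ± 0.85, adjusted p = 0.0311). GTF2F1, of the initiation factor TFIIF, read 1588, 3361 and 4575 in early cleavage embryos, against 113, 165 and 1055 in oocytes (3.32 ± 0.76, adjusted p = 0.0397). Both lost their calls without the 4-cell, the 8-cell, the oocyte 1 or the oocyte 2 array (highest adjusted p 0.117 for MED22 and 0.159 for GTF2F1). Of 45 genes linked to early embryonic transcription, 1 rose and 1 fell (2.22% each, against 2.26% and 1.35% of all genes), with a median log2 change of 0.34. CHAF1A, the chromatin assembly factor that loads histones behind the replication fork, was the rise, with 7591, 8073 and 6659.6 in early cleavage embryos, against 1450.2, 1481 and 3904 in oocytes (1.86 ± 0.41, adjusted p = 0.0325). KLF5, a factor of pluripotent and trophectoderm cells, was the fall, with 33.9, 96.1 and 182 in early cleavage embryos, against 543, 1467 and 3056 in oocytes (-3.72 ± 0.70, adjusted p = 0.0155), and another probe set had a log2 change of 0.11. The call of CHAF1A was lost without any 1 array but oocyte 3 (adjusted p 0.0502 to 0.132), and that of KLF5 without oocyte array 2 (0.0583).

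Some genes of this kind were high on a single cleavage array. KLF4, a pluripotency factor, read 992, 2209 and 8551 on the 2-, 4- and 8-cell arrays, against 1733, 1185 and 1142 in oocytes, and 12884 on the 16-cell array. MYC read 16.1, 20.1 and 372 on the cleavage arrays, against 21.1, 23.4 and 27.5 in oocytes, and 749 on the 16-cell array. The histone variant gene H2AZ1 read 42.8, 43.4 and 1830.0 on the cleavage arrays, against 408, 139.8 and 119.6 in oocytes, and 10902 on the 16-cell array. In these 3 genes the 8-cell array was the high one of the cleavage group, and the test over the group gave adjusted p values of 0.545, 0.658 and 0.978. POU5F1, the pluripotency factor, overlapped between the groups, with 3384, 5043 and 6687 in early cleavage embryos and 2542, 3207 and 5446 in oocytes. The heat shock gene HSPA1A, an early transcript of mouse embryos, overlapped too, with 9013, 7758 and 4474 in early cleavage embryos and 2686, 2100.0 and 8529 in oocytes, and passed as higher without the arrays numbered 3 alone (adjusted p = 0.026).

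Chromatin genes were close to the background, with 1 of 67 higher and 1 lower (1.49% each, against 2.26% and 1.35% of all genes) and a median log2 change of 0.00. The rise was CHAF1A, and the fall was PCGF1 of the Polycomb group, at the low signals of 6.67, 5.83 and 3.50 in early cleavage embryos, against 29.1, 36.9 and 34.7 in oocytes (-1.22 ± 0.17, adjusted p = 0.00352). UHRF1, which recruits the maintenance DNA methyltransferase, gave 10879.8, 7575 and 9515 in early cleavage embryos and 10453, 11636 and 8449 in oocytes, with no separation. DNMT1 gave 476, 331 and 144 in early cleavage embryos and 328, 1017 and 505 in oocytes (adjusted p = 0.473). DNMT3A, which sets new methylation, read 1533, 423 and 14.8 on the 2-, 4- and 8-cell arrays, against 12.3, 44.1 and 17.4 in oocytes. Its 2- and 4-cell arrays were above the oocytes and its 8-cell array was not (adjusted p = 0.237). It passed as higher without the 8-cell array (adjusted p = 0.00831) and with a mean for each stage (0.0200). Its other probe sets had log2 changes of -0.47 and 0.40. SLBP, which binds the stem-loop of histone mRNAs, gave 8892, 8766 and 4592 in early cleavage embryos and 8108, 10099 and 4228 in oocytes.

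Among 60 cell cycle genes, 1 rose (1.67%, against 2.26% of all genes) and 2 fell (3.33%, against 1.35%), and the median log2 change was -0.05. MCM3, of the helicase that licenses replication origins, read 3445, 4502 and 4063 in early cleavage embryos, against 512, 1227 and 1763 in oocytes (1.92 ± 0.44, adjusted p = 0.0402), and its other probe set had a log2 change of -0.61. ANAPC4, a subunit of the anaphase-promoting complex, read 627, 583 and 53.5 in early cleavage embryos, against 2811, 2201 and 4474 in oocytes (-3.35 ± 0.74, adjusted p = 0.0337). ESPL1, the separase that opens cohesin, read 525, 162 and 666 in early cleavage embryos, against 1658, 2654 and 1317 in oocytes (-2.17 ± 0.51, adjusted p = 0.0450). All 3 lost their calls without oocyte array 1 or 2 and with the added controls as a block (highest adjusted p 0.127 for MCM3, 0.104 for ANAPC4 and 0.167 for ESPL1). MCM3 also lost its call without any 1 of the cleavage arrays, and ANAPC4 without oocyte array 3 and without the arrays numbered 3. ESPL1 also lost its call without the 2-cell or the 4-cell array, after quantile normalization, after median centring and with a robust variance prior. The mitotic cyclins did not pass: CCNB1 gave 2978, 3833 and 5027 in early cleavage embryos and 2944, 6632 and 3639 in oocytes, and CCNB2 gave 7434, 7066 and 2001 in early cleavage embryos and 8231, 9281 and 6976 in oocytes. The anaphase activator CDC20 lay below every oocyte array, at 1545, 881 and 1613 in early cleavage embryos, against 2562, 6593 and 2687 in oocytes, and missed the threshold (log2 change -1.45 ± 0.57, adjusted p = 0.242). PLK1, a mitotic kinase, lay above the oocytes at 881, 963 and 583 in early cleavage embryos, against 261, 405 and 481 in oocytes, and missed it too (log2 change 1.06 ± 0.40, adjusted p = 0.212).

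Of 42 genes of glucose transport, glycolysis and pyruvate oxidation, 3 rose (7.14%, against 2.26% of all genes) and 0 fell (against 1.35%), with a median log2 change of 0.36. SLC2A8, an intracellular hexose transporter, read 2596, 2336 and 1424 in early cleavage embryos, against 252, 97.7 and 47.4 in oocytes (4.05 ± 0.58, adjusted p = 0.00387). ALDOA, the glycolytic aldolase, read 2928, 3734 and 2979 in early cleavage embryos, against 287, 229 and 1213 in oocytes (2.83 ± 0.51, adjusted p = 0.0122). MDH2, the malate dehydrogenase of mitochondria, read 4441, 4054 and 5229.8 in early cleavage embryos, against 849.5, 686 and 435 in oocytes (2.81 ± 0.29, adjusted p = 7.39e-04), though its other probe set had a log2 change of 0.06. ALDOA lost its call without oocyte array 1 (adjusted p 0.0545). Among 75 oxidative phosphorylation genes the median log2 change was -0.29, with 1 rise (1.33%, against 2.26% of all genes) and 0 falls (against 1.35%). The rise was NDUFB9 of complex I, at 3020.0, 3510.0 and 3178 in early cleavage embryos, against 298, 251 and 943 in oocytes (2.91 ± 0.47, adjusted p = 0.00775). No gene of the 36 for cholesterol and fatty acid synthesis passed, where 2.26% of all genes rose and 1.35% fell. Their brightest members overlapped between the groups: HMGCS1 gave 9244, 13100.0 and 10689.5 in early cleavage embryos and 14893, 13935 and 8963 in oocytes, and ELOVL5 gave 9810.5, 10856 and 10885 in early cleavage embryos and 12234, 10748 and 9931 in oocytes. Another probe set of HMGCS1 had a log2 change of -2.53.

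Protein breakdown and splicing genes each held 4 rises and 1 fall, among 70 ubiquitin and proteasome genes and 75 splicing genes. The rises made up 5.71% and 5.33% of these lists, against 2.26% of all genes, and the falls 1.43% and 1.33%, against 1.35%. USP16, which removes ubiquitin from histone H2A, read 1334, 1544 and 2192 in early cleavage embryos, against 237, 214 and 75.2 in oocytes (3.26 ± 0.60, adjusted p = 0.0148). RNF4, a ligase that recognises SUMO chains, read 678, 492 and 1054 in early cleavage embryos, against 71.9, 153 and 78.8 in oocytes (2.69 ± 0.52, adjusted p = 0.0175). USP2 read 775, 583 and 877 in early cleavage embryos, against 14.3, 125 and 224 in oocytes (2.89 ± 0.64, adjusted p = 0.0334), and PSMC2 of the proteasome, named after its value was seen, rose by 2.31 on the log2 scale (adjusted p = 0.0174). The proteasome subunit PSMB4 was the fall, with 40.3, 449.8 and 89.7 in early cleavage embryos, against 963, 989 and 2064 in oocytes (-3.18 ± 0.66, adjusted p = 0.0260). RNF4 lost its call without oocyte array 1 alone (adjusted p 0.0762). USP2 lost its call without any 1 array but oocyte 3, after quantile normalization and with a pseudocount of 1 (adjusted p 0.0528 to 0.0737). PSMB4 lost its call without the 2-cell, the 8-cell or any 1 oocyte array and without the arrays numbered 3 (adjusted p 0.0522 to 0.0701). PSMC2 lost its call without the 2-cell, the 4-cell or the oocyte 2 array (adjusted p 0.0505 to 0.0606).

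Of the splicing genes, PTBP1, a repressor of exon inclusion, read 1339.5, 457 and 168 in early cleavage embryos, against 18.1, 43.5 and 18.6 in oocytes (3.57 ± 0.73, adjusted p = 0.0241), highest on the 2-cell array. SF3A1, of the U2 particle, read 8798, 9107 and 5838 in early cleavage embryos, against 1033, 395 and 2945 in oocytes (2.84 ± 0.63, adjusted p = 0.0343). SYNCRIP, an RNA-binding protein, read 2027, 800.5 and 3104 in early cleavage embryos, against 644, 269.7 and 115 in oocytes (2.57 ± 0.62, adjusted p = 0.0487), and RBM5, named after its value was seen, rose by 2.32 on the log2 scale (adjusted p = 0.0283). PRPF8, the core protein of the spliceosome, fell, with 522, 1072 and 313 in early cleavage embryos, against 3929, 1757 and 3844 in oocytes (-2.38 ± 0.50, adjusted p = 0.0273). All 5 lost their calls without the 2-cell array and without some oocyte array (highest adjusted p 0.0942 for PTBP1, 0.112 for SF3A1, 0.133 for SYNCRIP, 0.112 for PRPF8 and 0.0854 for RBM5).

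Stress and chaperone genes showed 4 rises (5.19%, against 2.26% of all genes) and 1 fall (1.30%, against 1.35%) among 77. CCT3, of the cytosolic chaperonin that folds tubulin and actin, read 4007, 3708 and 2453 in early cleavage embryos, against 433, 649 and 498 in oocytes (2.64 ± 0.35, adjusted p = 0.00255). HSF1, the master factor of the heat shock response and a maternal-effect gene in mice, read 200.5, 252 and 532 in early cleavage embryos, against 21.5, 31.6 and 40.7 in oocytes (2.77 ± 0.50, adjusted p = 0.0131). HSPA9, the mitochondrial HSP70, read 4878, 3472 and 2115 in early cleavage embryos, against 877, 846 and 783 in oocytes (1.96 ± 0.44, adjusted p = 0.0345), and HSP90AA1, named after its value was seen, rose by 1.74 on the log2 scale (adjusted p = 0.013). BIRC6, an inhibitor of apoptosis, was the fall, with 386, 606 and 175 in early cleavage embryos, against 2598, 1587 and 2230.0 in oocytes (-2.54 ± 0.52, adjusted p = 0.0248). Other probe sets had log2 changes of 0.05 (HSF1), 0.18 (HSPA9), and -0.38 and 0.02 (BIRC6), and none of these passed. Without oocyte array 1, HSF1 (adjusted p 0.0612), HSP90AA1 (0.0526), HSPA9 and BIRC6 lost their calls, the last 2 with adjusted p up to 0.102 and 0.101 over the alternatives. Of the genes often taken as steady references, ACTB gave 5311, 6894 and 8648 in early cleavage embryos and 6573, 9005 and 3673 in oocytes. GAPDH gave 869, 378 and 275 in early cleavage embryos and 44.01, 298 and 177 in oocytes, and neither passed.

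Genes of later epithelia and lineages were counted as well. Of 42 junction and blastocoel transport genes 2 fell (4.76%), and of 27 lineage genes 2 fell (7.41%), against 1.35% of all genes. In both lists 0 rose, where 2.26% of all genes did. CGN, cingulin of the tight junction, read 40.98, 137 and 115 in early cleavage embryos, against 924, 1348 and 1035 in oocytes (-3.40 ± 0.49, adjusted p = 0.00387). GJA1, connexin 43 of gap junctions, read 19.3, 15.9 and 11.6 in early cleavage embryos, against 692, 311 and 85.3 in oocytes (-3.19 ± 0.72, adjusted p = 0.0358). Its other probe set had a log2 change of 0.71 without passing. COL4A1, a basement membrane collagen, read 31.8, 224 and 376 in early cleavage embryos, against 2989, 2964 and 2358 in oocytes (-4.07 ± 0.76, adjusted p = 0.0155), though its other probe set had a log2 change of 1.30. COL4A1 lost its call without oocyte array 1 or 2 (adjusted p 0.0572 to 0.0601). GJA1 lost its call without any 1 array but oocyte 3, with a pseudocount of 64 and with the added controls as a block (adjusted p 0.0585 to 0.137). The epithelial keratin gene KRT18 read 7.18, 7.40 and 6.02 in early cleavage embryos, against 3.62, 27.4 and 35.5 in oocytes, and its partner KRT8 read 52.9, 37.97 and 40.9 in early cleavage embryos, against 38.1, 36.7 and 24.2 in oocytes. The claudin genes did not separate the groups: CLDN4 read 19.1, 8.59 and 47.1 in early cleavage embryos and 8.67, 12.1 and 10.5 in oocytes, and CLDN6 read 109, 159 and 86.6 in early cleavage embryos and 105, 112 and 113 in oocytes. The gap junction gene GJB5 read 94.1, 410.3 and 176 in early cleavage embryos, against 49.4, 41.3 and 101 in oocytes, so its 4- and 8-cell arrays were above every oocyte array, and it did not pass (log2 change 1.45 ± 0.61, adjusted p = 0.282).

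Markers of other cells in or around the egg were counted as lists too. Among 42 markers of cumulus and granulosa cells, 2 fell (4.76%, against 1.35% of all genes) and 1 rose (2.38%, against 2.26%). Their summed signal was 19006 to 24501 in early cleavage embryos and 20293 to 24142 in oocytes. GJA1, which joins cumulus cells to the oocyte, is also on this list. VCAN, a proteoglycan of the expanding cumulus, read 56.7, 168 and 54.3 in early cleavage embryos, against 965, 672 and 399 in oocytes (-2.74 ± 0.52, adjusted p = 0.0158). CLU, clusterin, was the rise, with 339.7, 277 and 398 in early cleavage embryos, against 59.2, 50.02 and 75.05 in oocytes (2.19 ± 0.46, adjusted p = 0.0263). Other probe sets of VCAN had log2 changes of -1.37 and 0.05 without passing. Both VCAN and CLU lost their calls without oocyte array 1 or 2 (adjusted p up to 0.0694 and 0.0957). CLU also lost its call without the 2-cell or the 8-cell array. Of the defining markers, CYP19A1, FSHR, FOXL2 and AMH stayed at or below 54.6 on all 6 arrays, and INHBA gave 246, 290.4 and 194 in early cleavage embryos and 279.9, 214 and 212 in oocytes. The cumulus expansion genes had signal on some arrays. HAS2 read 28.2, 2179 and 2003 in early cleavage embryos, against 1776, 1571 and 1310.3 in oocytes. TNFAIP6 read 2.90, 12.3 and 641 in early cleavage embryos, against 562, 70.2 and 1072 in oocytes. PTX3 read 16.3, 17.9 and 16.3 in early cleavage embryos, against 428, 416 and 20.6 in oocytes. On the 16-cell array HAS2 read 4710, while TNFAIP6 and PTX3 read 12.93 and 12.25. HAS2 was higher still at later stages, with 8972, 8622 and 9257 in morulae and 8039, 6215 and 8720 in blastocysts, so its signal is not limited to stages near the cumulus. The part of cumulus RNA in the falls of GJA1 and VCAN was not tested, and fewer cells of a type and less RNA per cell cannot be told apart.

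Sperm markers summed to 948 to 1994 in early cleavage embryos and 414 to 481 in oocytes over 17 genes. Of these genes 1 rose (5.88%, against 2.26% of all genes) and 0 fell (against 1.35%). The rise was LDHC, the lactate dehydrogenase of spermatogenic cells, with 1587, 367 and 434 in early cleavage embryos, against 138, 103 and 21.6 in oocytes (2.88 ± 0.60, adjusted p = 0.0252). It made up 1587 of the summed 1994 on the 2-cell array. It lost its call without the 2-cell array or oocyte array 2 and with a pseudocount of 1 (adjusted p 0.0525 to 0.0610). PRM1, PRM2 and TNP1, which package sperm DNA, read at most 15.9 on the cleavage arrays and at most 14.02 in oocytes. Of the tail genes, ODF1 gave 81.9, 36.6 and 72.6 in early cleavage embryos and 61.96, 51.8 and 67.7 in oocytes, and AKAP4 gave 49.02, 76.3 and 36.6 in early cleavage embryos and 55.3, 55.05 and 34.9 in oocytes. No gene of the 30 blood markers or the 30 stromal markers passed, where 2.26% of all genes rose and 1.35% fell. The blood markers summed to 2132.5, 2337.8 and 2497.4 on the 2-, 4- and 8-cell arrays, against 1120.4, 1201.6 and 1841.9 on the oocyte arrays. The groups did not overlap in this sum. CSF1R alone made up 1031, 1278 and 1250.3 of it on the cleavage arrays, against 129, 193 and 796 in oocytes. The stromal markers summed to 3191.5, 3078.0 and 2055.6 on the cleavage arrays, against 2974.2, 2430.3 and 2335.1 on the oocyte arrays, with overlap. The part of sperm, blood and stromal RNA in the results was not tested. The brightest blood marker, CSF1R, read 1031, 1278 and 1250.3 in early cleavage embryos, against 129, 193 and 796 in oocytes (adjusted p = 0.131). It passed as higher without oocyte array 3 and without the arrays numbered 3, with an adjusted p as low as 0.00553. The globin gene HBB stayed at 21.5, 23.6 and 24.9 in early cleavage embryos and 20.7, 18.2 and 30.3 in oocytes, and the collagen gene COL1A1 stayed at 4.27, 5.17 and 1.00 in early cleavage embryos and 14.2, 1.12 and 2.70 in oocytes. The leukocyte markers PTPRC, CD3E and CD14 read at most 65.8 on the cleavage arrays and at most 68.2 in oocytes, and the stromal markers COL1A2, COL3A1, DCN and LUM at most 163 on the cleavage arrays and at most 237.1 in oocytes. The other bright members of these lists were GZMB, with 69.3, 113 and 108 in early cleavage embryos and 76.7, 167 and 66.2 in oocytes, and the stromal genes MGP and TIMP1. MGP gave 602, 205 and 39.8 in early cleavage embryos and 613, 388 and 381 in oocytes, and TIMP1 gave 104, 97.2 and 103 in early cleavage embryos and 180.5, 261 and 275 in oocytes.

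Some transcripts belonged to 1 cleavage array alone. Among genes with a signal above 500, 78 were at least 4-fold higher on the 2-cell array than on each of the other 5 arrays, 35 on the 4-cell array and 93 on the 8-cell array, of 9155 genes. The same count was 5, 11 and 59 for oocyte arrays 1, 2 and 3, so an oocyte array could stand apart from its own group as a cleavage array did. As many as 119 genes were 4-fold lower on the 8-cell array alone, next to 34 on the 2-cell and 8 on the 4-cell array and 4, 2 and 45 on oocyte arrays 1, 2 and 3. With 1 array a stage these differences have no replicate check, and they are given without a test.

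On the 8-cell array, the chemokine gene GRO1 reached 4263, while the 2- and 4-cell arrays read 15.8 and 12.8 and the oocytes 12.2, 13.4 and 20.5. PNRC1, a nuclear receptor coregulator, read 12.6, 34.6 and 5329 on the 2-, 4- and 8-cell arrays, against 21.8, 22.1 and 43.7 in oocytes. RSRP1 read 73.05, 1.38 and 4414 on the same 3 arrays, against 51.8, 47.7 and 6.35 in oocytes. ANKRD50 read 19.4, 48.6 and 4754 on the cleavage arrays, against 129, 25.1 and 13.3 in oocytes. These 4 genes were again high on the 16-cell array, at 5520.2 for GRO1, 8427 for PNRC1, 3886 for RSRP1 and 5679 for ANKRD50. SLC25A25, a mitochondrial carrier, and URGCP followed the same course, with 1256 and 997 on the 8-cell array and 1619.6 and 4749.9 on the 16-cell array, against at most 11.8 in oocytes. LRSAM1, an E3 ligase, and ENDOD1 read 1831 and 1504 on the 8-cell array and 63.98 and 396 on the 16-cell array.

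The 4 genes most above the other arrays on the 2-cell array were much lower at the 16-cell stage, at 364 (KPNA4), 72.8 (KIAA0100), 1.51 (TMEM38A) and 6.30 (RNF170). KPNA4, an importin alpha, read 2397, 2.63 and 26.8 on the 2-, 4- and 8-cell arrays, against 13.9, 1.13 and 14.7 in oocytes, with 12.8 and 9.77 on the 1-cell arrays. KIAA0100 read 1981, 31.01 and 29.5 on the cleavage arrays, against 9.85, 20.9 and 1.00 in oocytes, and RNF170, a ubiquitin ligase, 1114, 23.9 and 4.70 on the cleavage arrays, against 5.47, 5.60 and 2.54 in oocytes. TMEM38A, an ion channel of the endoplasmic reticulum, read 1114 on the 2-cell array and was listed at exactly 1.00 on the 4- and 8-cell arrays. On the 4-cell array alone among the 6 arrays, ALDH5A1, a mitochondrial dehydrogenase, reached 2767 and FKBP5, a cochaperone, 835, with FILIP1L at 746. The 2 1-cell arrays read 464 and 107 for ALDH5A1, 155 and 10.1 for FKBP5, and 217 and 6.16 for FILIP1L. On the 16-cell array these 3 genes read 2278, 18.7 and 3.49. ADGRG7 read 915 on the 4-cell array and was listed at exactly 1.00 on the other 5 arrays. That value makes up 2.56% of the table, and its meaning is not given in the sources used here.

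Other genes, named after their values were seen, were low on 1 cleavage array alone. On the 8-cell array TM9SF2, an endosomal membrane protein, stood apart, with 7474, 6747 and 21.4 on the 2-, 4- and 8-cell arrays, against 10061, 8975 and 8949.6 in oocytes. The transcription factor HHEX read 2265, 4970.5 and 16.9 on the cleavage arrays, against 5108, 6382 and 5058 in oocytes. On the 2-cell array the elongation factor gene EEF1B2 read 14.6, next to 3052 and 3969.9 on the 4- and 8-cell arrays and 2485, 1871 and 3801 in oocytes. S100PBP and PTPRF were low there as well, at 4.17 and 8.82. The 4-cell array was low for CD302 (5.80), ZMIZ2 (112) and the DNA helicase gene ERCC6L (218), while their other cleavage arrays read 785 or more.

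The neighbouring stages place the called genes in time. Of the 207 genes that rose, 176 (85.0%) were above every oocyte array on both 1-cell arrays, compared with 14.4% of all genes, and 121 (58.5%, 10.9% of all genes) were still below every cleavage array there. In CNOT1 the 1-cell arrays read 3643 and 3337, close to the cleavage arrays, while in NHLRC2 they read 64.8 and 959. Of the 124 genes that fell, 55 (44.4%, 8.12% of all genes) were already below every oocyte array on both 1-cell arrays, and 97 (78.2%, 13.8% of all genes) were above every cleavage array there. The median log2(signal + 16) of the genes that rose was, in stage order, 7.03 to 7.49 in oocytes, 9.44 and 9.58 on the 1-cell arrays and 10.51, 10.46 and 10.84 on the 2-, 4- and 8-cell arrays. For the genes that fell it was 9.70 to 10.04 in oocytes, 8.71 and 9.35 on the 1-cell arrays and 5.87, 6.83 and 5.95 on the 2-, 4- and 8-cell arrays. The genes were chosen on the oocyte and cleavage arrays, so part of the distance to the 1-cell arrays follows from the choice.

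**Figure D5:**
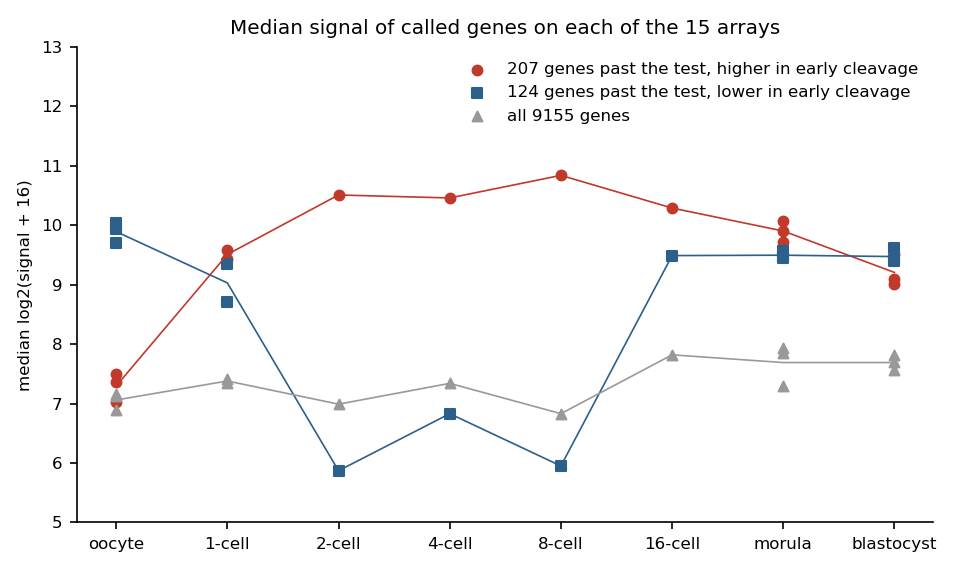
Median log2(signal + 16) on each of the 15 arrays, in stage order, of the 207 genes past the test as higher in early cleavage, the 124 as lower, and all 9155 genes; each symbol is 1 array and lines join stage means. The falls lie at 5.87 to 6.83 on the cleavage arrays and at 9.49 on the 16-cell array, and the rises stay near 10.29 there.

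On the 16-cell array many genes that had fallen were high again. Of the 124, 55 (44.4%) were at least 4-fold above their highest cleavage array, against 9.15% of all genes, and 2 were at least 4-fold below the lowest one. FGF2, a fibroblast growth factor, read 11.8, 19.4 and 18.6 on the 2-, 4- and 8-cell arrays, against 340.4, 206 and 1411 in oocytes (-3.90 ± 0.59, adjusted p = 0.00517), and 3747 on the 16-cell array. PLOD2, a collagen lysyl hydroxylase, read 6.13, 2.11 and 8.79 on the cleavage arrays, against 196, 247 and 1247 in oocytes (-4.26 ± 0.83, adjusted p = 0.0185), and 5675 on the 16-cell array. SLC38A2, a glutamine transporter, read 3.79, 4.99 and 6.55 on the cleavage arrays, against 434, 71.4 and 1358 in oocytes (-4.16 ± 0.74, adjusted p = 0.0121), and 3931 on the 16-cell array. LOC282255, listed in RefSeq with the synonym IFITM3, read 2.19, 4.90 and 5.82 on the cleavage arrays, against 292, 207 and 922 in oocytes (-4.31 ± 0.64, adjusted p = 0.00460), and 3210.5 on the 16-cell array. Its other probe set passed in the same direction, with a change of -3.84, whereas those of FGF2 (0.61), PLOD2 (0.24) and SLC38A2 (0.02) did not pass. PLOD2 lost its call with a pseudocount of 64 (adjusted p 0.0593) and SLC38A2 without oocyte array 1 (0.0512). Part of this share follows from the choice of genes that were low on the cleavage arrays.

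Among the 207 genes that rose, 21 (10.1%) were at least 4-fold below their lowest cleavage array on the 16-cell array, against 2.86% of all genes. Part of this share follows from the choice of genes that were high on the cleavage arrays. AP3B2, an adaptor subunit, read 2266, 2076 and 1146 on the 2-, 4- and 8-cell arrays, against 182, 109.8 and 48.8 in oocytes (3.92 ± 0.63, adjusted p = 0.00738), and 14.04 on the 16-cell array. SPIRE2, which nucleates actin and is needed for the asymmetric division of mouse oocytes, read 2050.3, 1348 and 2169 on the cleavage arrays, against 217, 118 and 105 in oocytes (3.56 ± 0.70, adjusted p = 0.0194), and 44.8 on the 16-cell array. TBCE, a tubulin-folding cofactor, read 2382, 2583 and 2663 on the cleavage arrays, against 527, 649 and 74.5 in oocytes (3.00 ± 0.64, adjusted p = 0.0290), and 56.5 on the 16-cell array. USP2 was at 2.41 there. These 4, like the 4 genes that were high again, were named after their values were seen. SPIRE2 lost its call without oocyte array 2 (adjusted p 0.0746) and TBCE without any 1 of the cleavage arrays (0.0577 to 0.0650). The 16-cell stage is a single array, so these steps have no replicate check.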

How the data were processed

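The authors deposited 1 table of intensity values on a linear scale, with 24128 probe sets on 15 Affymetrix Bovine Genome arrays. Total RNA had been amplified in 3 rounds and labelled with biotin, per the labels' protocols. How probes were summarised and arrays scaled is not given in the sources used here. No detection calls were used, which leaves the background level unknown, and the number of arrays limits the precision. The values run from 0.39 to 20788, and 2.56% of them are exactly 1.00.

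The 112 control probe sets were left out, and 24016 were tested on log2(value + 16). Every log2 change is on this scale and is too small for genes of low signal. limma (version 3.58.1, R 4.3.3) fitted a mean per group (oocyte, 1-cell, early cleavage, 16-cell, morula, blastocyst) to all 15 arrays, with empirical Bayes variances that followed the mean signal. Its p-values were adjusted by the Benjamini-Hochberg method over the 24016 tests, with a threshold of 0.05. Other stages enter because few degrees of freedom lie within the 6 arrays. The p-values describe spread among the arrays at hand, and the labels call only the oocyte, 1-cell, morula and blastocyst arrays biological replicates.

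Names came from the platform annotation, updated by gene identifier to RefSeq (assembly ARS-UCD2.0), which held the identifier of 13265 tested probe sets. One symbol was found for 13292 probe sets and several for 86, and 10638 had no symbol here; the last 2 kinds stayed unnamed. The probe set of highest mean signal stood for each of 9155 genes. In 21 lists 1034 different genes were measured.

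Named genes were, in each direction, the 15 with the largest change past the test, without overlap of the groups and with the higher group mean above the median signal. To these were added up to 4 members past the test of each list, or else its 2 brightest, the genes furthest above the other arrays on 1 cleavage array (8 for the 8-cell, 4 each for the 2- and the 4-cell array), 31 genes given in any case, and the defining markers of oocytes, other cells and later epithelium. BTG4, DAZL, DPPA3, KLF17, TET3, KDM4A and KDM6B, which belong to these 31, were not analysed here. Other genes are said to have been named after their values were seen. The members and the lists were chosen with earlier results of these data known. The test was tried on simulated data with 200 of 24016 probe sets changed: it recovered 8% of the changes of 1, 48% of those of 2 and 92% of those of 4 on the log2 scale, with 8 false calls. The simulated noise was independent between arrays, with the same spread in every group. It held no differences shared by many probe sets of an array and no differences between cleavage stages. These rates therefore do not describe the arrays at hand. The 17 alternatives were other normalizations, pseudocounts, filters, variance priors, blocks and arrays left out.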

Additional observations from a re-analysis of the deposited data

Results flagged for a closer look

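The lys control RNA, which is added at labelling and belongs to no comparison of the transcripts, had a strong signal on all cleavage arrays: 11420, 11440 and 14810 on the 2-, 4- and 8-cell arrays, against 16.3, 2815 and 13080 on oocyte arrays 1, 2 and 3. It drew attention because it lies outside the tested probe sets and its highest cleavage value, 14810, exceeds every oocyte value. The same control was low on the arrays numbered 1 of the 1-cell embryos and on the arrays numbered 1 and 2 of the morulae and blastocysts. Its part in the calls was not tested beyond the fits with this class of arrays as a block and without single arrays. The block put oocyte array 2, at 2815, in 1 class with the cleavage arrays.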

How the results depend on the processing

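The fit to all 15 arrays called 655 probe sets, 382 higher and 273 lower in early cleavage. With only the 6 arrays compared, 0 passed limma's adjusted p of 0.05 (0 higher and 0 lower), 2690 passed an unadjusted p of 0.05 and 4 residual degrees of freedom were left. With a mean for each stage, so that the 3 cleavage arrays added no spread, 1488 passed, 908 higher and 580 lower. Leaving out single arrays gave 307 to 1167 calls, 182 to 605 of them higher and 125 to 562 lower: 307 without oocyte array 1, 342 without oocyte array 2 and 1167 without oocyte array 3. Without the arrays numbered 3 in the labels 1809 passed, 843 higher and 966 lower, so 46.6% were higher in place of 58.3%; the cause was not tested. The other alternatives gave 591 to 776 calls. Centring each array on its median moved the median change of all probe sets to 0.10, against 0.02. No paired analysis was possible because the 2-, 4- and 8-cell arrays carry no replicate number in the labels.

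Of the 79 genes past the test that the rule or their course at the 16-cell stage named, 38 passed in every alternative run for them but the fit of the 6 arrays, 41 lost their call in at least 1 other, and 0 changed sign. Among the 38, PCGF1 had 16 of 17 alternatives, since the filter on low signals removed it. Of the 8 further list members named, 6 lost their call in at least 1 alternative besides that fit. Of the 32 genes not past the test that were named from the lists or given in any case, 5 passed in at least 1 alternative (BMP15, NLRP5, CSF1R, DNMT3A and HSPA1A) and 14 changed sign in at least 1. Genes named for 1 array alone or as defining markers only were not run under the alternatives. As single arrays were left out, the log2 changes of these 14 ran from -0.17 to 0.47 for ACTB, from -0.35 to 0.24 for CCNB1, from -0.126 to 0.0239 for ELOVL5, from -0.23 to 0.35 for GZMB, from -1.81 to 0.67 for H2AZ1, from -0.37 to 0.21 for KPNA7 and from -0.32 to 0.42 for MOS. They ran from -0.23 to 1.57 for MYC, from -0.607 to 0.0264 for OOEP, from -0.35 to 0.33 for SLBP, from -0.258 to 0.0117 for UHRF1, from -0.24 to -0.14 for ZP2, from -0.59 to 1.11 for ZP3 and from -0.000271 to 0.202 for ZP4. Under the other alternatives GZMB changed to 0.0281 (quantile normalization) and 0.0733 (median centring), and ELOVL5 to 0.0274 (median centring) and 0.25 (added controls as a block). The block also turned H2AZ1 to 0.24, ZP2 to 0.0247 and MOS to -0.08999, and a pseudocount of 64 turned H2AZ1 to 0.10. Without the arrays numbered 3, OOEP changed to 0.0264, SLBP to -0.35 and ACTB to -0.17.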
